A study of Mus musculus with 10 samples.

Results

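The genes described here are the alpha-defensins of the mouse and 4 other products of Paneth cells, measured along the gut after vertical sleeve gastrectomy (VSG) or a sham operation. They were taken by name, as all genes whose symbol starts with Defa together with Lyz1, Mmp7, Ang4 and Itln1. This gave 31 of the 23079 genes in the deposited table, of which 27 were Defa genes, 3 of them pseudogenes. Of the 31 genes, 29 reached at least 1 RPKM (reads divided by the length of the gene and the depth of the library) in at least 1 library. The pseudogene Defa-ps13 was at 0 in all 10 libraries, and the pseudogene Defa-ps12 was above 0 only in the sham stomach library, at 0.456 RPKM.

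All mice were male C57BL/6J, 17 weeks old, and high-fat diet had been given for 13 weeks. VSG took away the lateral 80% of the stomach and left a pouch of about 20%. Sham mice had the peritoneal cavity opened and the stomach pressed with hemostats, with none of it removed, and all mice had a liquid diet for the first 3 days after surgery. Stomach, duodenum, jejunum, ileum and colon were sequenced with 1 library for each tissue and surgery, 10 in all, with 36073746 to 79313317 reads on genes recovered per library. The number of animals per library and the time between surgery and sampling are not in the labels. The spread behind the p-values below is what the tissue and surgery terms leave over between libraries, and it may be technical in part. With 1 library for each tissue and surgery, it takes in any difference between tissues in the effect of VSG. It does not measure a spread between replicates. A comparison inside 1 tissue rests on 1 library a side and could not be checked against replicates.

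The library labelled sham duodenum stood apart from the rest. Its 10 neuron and glia markers summed to 2679 RPKM, against 12.9 to 60.8 RPKM in the other 9 libraries, and Vil1, the villin of the enterocyte brush border, was at 0.526 RPKM there against 741 RPKM in the VSG duodenum library. Its levels are therefore not used as a duodenum, and the duodenum is represented by the VSG library alone. In bulk tissue, fewer Paneth cells and less RNA per Paneth cell cannot be told apart.

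Paneth cells sit at the base of the crypts of the small intestine and release antimicrobial proteins from large granules into the crypt lumen. Alpha-defensins are small cationic peptides that disrupt microbial membranes and are held in shape by disulfide bonds between conserved cysteines. In the mouse they are made as precursors that matrilysin (Mmp7) cleaves into active peptides. Lysozyme (Lyz1) breaks down bacterial cell walls, Ang4 is a ribonuclease of the angiogenin family with antimicrobial activity, and Itln1 is a lectin that binds microbial sugars. Wnt signalling, acting through TCF/LEF factors, maintains Paneth cells and their defensin genes.

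The Defa genes lie in a cluster on chromosome 8, at chr8:21025545-21735471 for the 24 protein-coding members of the table (RefSeq, GRCm38.p6). Many are near copies of each other, and Defa20 and Defa32, and likewise Defa17 and Defa3, have identical coding sequences. How the authors divided reads between such copies is not given in the sources used here, so values of single members are uncertain. The 24 genes were therefore also grouped by sequence, without any expression value, by joining genes whose coding sequences are at least 95% identical. This gave 7 groups, each named here by its member with the highest ileal level. The Defa33 group holds Defa33, Defa20 and Defa32. The Defa21 group holds Defa21 and Defa22. The Defa37 group holds Defa37, Defa5, Defa35, Defa34 and Defa41. The Defa42 group holds Defa42, Defa38, Defa39 and Defa29. The Defa24 group holds Defa24, Defa17, Defa3, Defa30 and Defa31. The last groups are Defa26 with Defa40, and Defa27 with Defa28 and Defa25. The groups are interleaved on the chromosome: of 23 pairs of neighbouring genes, 1 pair belonged to the same group.

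The part of the coding sequence that holds the cysteines of the mature peptide shows how the groups differ. It is printed from its first cysteine codon to the stop codon for the leading member of the 5 groups with the highest ileal level, from the GENCODE M21 transcripts (GRCm38), with cysteine codons in capitals.
Defa33 (codons 64 to 96): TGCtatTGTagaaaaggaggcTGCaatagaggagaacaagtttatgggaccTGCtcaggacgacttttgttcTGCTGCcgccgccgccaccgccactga
Defa21 (codons 64 to 94): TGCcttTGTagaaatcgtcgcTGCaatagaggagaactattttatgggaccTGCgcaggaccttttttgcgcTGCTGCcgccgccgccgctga
Defa37 (codons 64 to 94): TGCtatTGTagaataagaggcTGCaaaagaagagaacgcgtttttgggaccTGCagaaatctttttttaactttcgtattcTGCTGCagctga
Defa24 (codons 64 to 94): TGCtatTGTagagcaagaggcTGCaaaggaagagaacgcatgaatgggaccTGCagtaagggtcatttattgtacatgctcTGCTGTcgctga
Defa42 (codons 65 to 117): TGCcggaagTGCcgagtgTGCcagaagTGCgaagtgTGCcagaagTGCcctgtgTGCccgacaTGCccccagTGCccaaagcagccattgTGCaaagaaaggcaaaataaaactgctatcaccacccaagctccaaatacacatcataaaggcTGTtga
In the Defa33 and Defa21 groups, 6 codons lie between the fourth and the fifth cysteine codon, at codons 81 and 88. In the Defa37 and Defa24 groups 9 codons lie between them, at codons 81 and 91. The Defa42 group has 11 cysteine codons in repeated cysteine-rich triplets in place of this arrangement, as in the cryptdin-related sequence peptides of the mouse.

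The promoters of these genes are printed because members of a group had like profiles along the gut. The RefSeq promoter table (GRCm38.p6) held 12 of the 24 genes. The stretches run to 25 bases past the TATAAA, with matches to TATAAA and to the TCF/LEF motif CTTTGAT, in either strand, in capitals (ATCAAAG is CTTTGAT read on the other strand).
Defa20 (chr8:21509133-21509257, plus strand): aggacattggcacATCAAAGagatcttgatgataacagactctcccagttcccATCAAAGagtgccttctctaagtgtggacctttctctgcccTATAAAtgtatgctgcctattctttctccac
Defa21 (chr8:21025420-21025544, plus strand): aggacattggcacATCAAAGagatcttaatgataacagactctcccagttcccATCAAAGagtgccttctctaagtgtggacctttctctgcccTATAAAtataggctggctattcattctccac
Defa37 (chr8:21565246-21565370, plus strand): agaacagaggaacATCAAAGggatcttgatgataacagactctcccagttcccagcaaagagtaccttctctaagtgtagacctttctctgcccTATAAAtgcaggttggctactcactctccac
Defa30 (chr8:21134495-21134619, plus strand): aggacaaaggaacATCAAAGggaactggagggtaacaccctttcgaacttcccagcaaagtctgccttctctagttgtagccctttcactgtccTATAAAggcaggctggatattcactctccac
Defa42 (chr8:21456561-21456685, minus strand): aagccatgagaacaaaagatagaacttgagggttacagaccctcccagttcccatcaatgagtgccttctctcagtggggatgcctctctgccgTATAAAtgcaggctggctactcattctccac
Within the 200 bases before the annotated start, CTTTGAT was found in 10 of the 12 Defa promoters and in 2.5% of all 32851 promoters. It was found at 2 or more places in 7 of the 12 and in 0.07% of all promoters. These 7 were the 4 entries of the Defa33 and Defa21 groups (Defa20, Defa32, Defa21 and Defa22), Defa35 and Defa41 of the Defa37 group, and Defa31 of the Defa24 group. The entries Defa42 and Defa38 of the Defa42 group had no match in this window. TATAAA was found in 11 of the 12 and in 10% of all promoters, and it did not overlap CTTTGAT in the stretches shown. The promoters of the Defa33 and Defa21 groups were 96.5% to 97.5% identical over 200 bases, while their coding sequences were at most 89.2% identical.

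Alpha-defensins were among the most abundant transcripts of the ileum. Of the 10 genes with the highest RPKM, 6 were Defa genes in sham ileum and 6 in VSG ileum, and Defa33 ranked 2 and 1 among all genes there. In jejunum Defa33 ranked 2879 (sham) and 513 (VSG). Their summed level was 5662 RPKM in the VSG duodenum library, 8984 RPKM in sham jejunum and 20410 RPKM in VSG jejunum. It was 64810 RPKM in sham ileum and 86710 RPKM in VSG ileum. Reads on Defa genes made up 3.12% of all reads on genes in sham ileum and 4.05% in VSG ileum. They made up 0.449% in sham jejunum and 1.12% in VSG jejunum. In stomach and colon the summed level was 11.3 to 45.4 RPKM. The other Paneth cell products that label the cell type, Lyz1, Mmp7 and Ang4, were all present in the jejunum and ileum libraries.

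**Figure D1:**
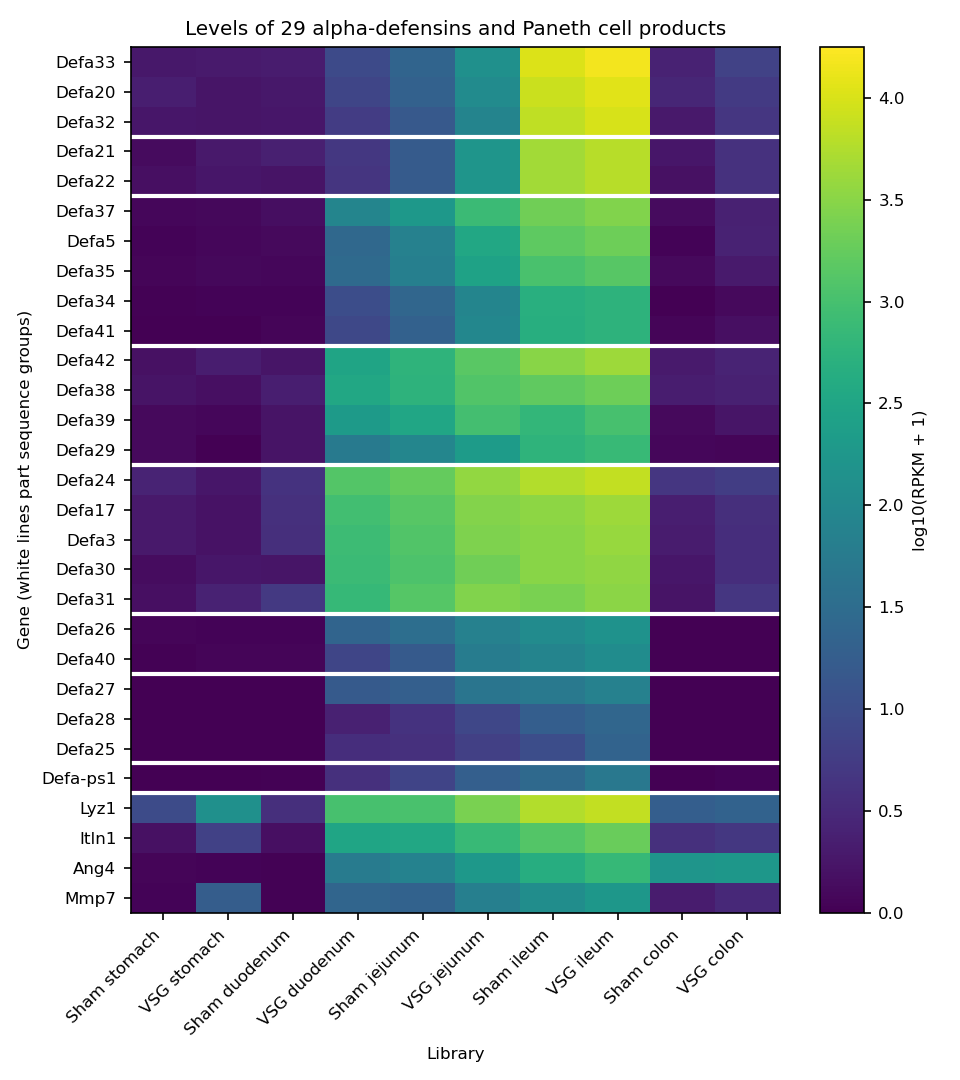
Level of each of the 29 members that reached 1 RPKM, as log10(RPKM + 1), in each of the 10 libraries (1 column per library). White lines part the sequence groups, with the pseudogene Defa-ps1 and the 4 genes that are not defensins at the bottom. The top 5 genes are bright in the ileum columns alone, while the Defa24 group is bright from the VSG duodenum to the ileum.

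The sequence groups had different profiles along the gut. The Defa33 group was the most abundant group of the ileum, at 25600 RPKM (sham) and 36230 RPKM (VSG), yet it was at 56.8 RPKM in sham jejunum, 329.5 RPKM in VSG jejunum and 19.5 RPKM in VSG duodenum. The Defa21 group had the same shape, at 9302 RPKM in sham ileum and 12330 RPKM in VSG ileum, against 31.2 RPKM in sham jejunum, 325.6 RPKM in VSG jejunum and 7.53 RPKM in VSG duodenum. The sham ileum library was thus 450.6-fold above sham jejunum for the first group and 297.8-fold for the second. Both groups are the ones with 6 codons between the fourth and the fifth cysteine codon.

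The Defa24 group was the opposite case and was high throughout the small intestine. It summed to 4505 RPKM in VSG duodenum, 6902 RPKM in sham jejunum, 14070 RPKM in VSG jejunum, 17880 RPKM in sham ileum and 22380 RPKM in VSG ileum. The ratio of sham ileum to sham jejunum was 2.59. The Defa42 group was close to it in shape, with a ratio of 3.89, and so were the groups of Defa26 (3.97) and Defa27 (3.14). The Defa37 group lay between the extremes, with 368.7 RPKM in sham jejunum and 5726 RPKM in sham ileum, a ratio of 15.5.

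**Figure D2:**
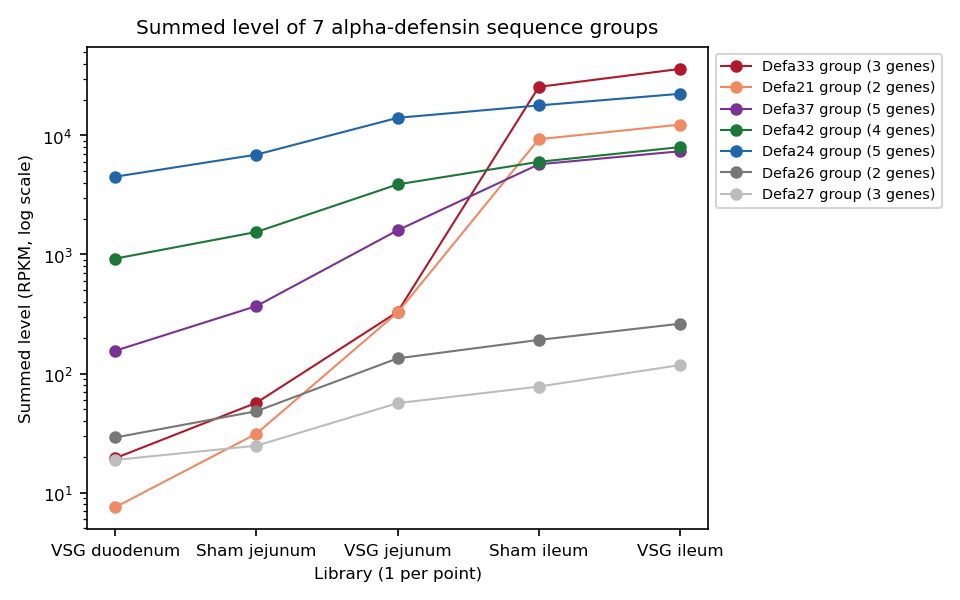
Summed level of the 7 sequence groups in RPKM, on a log axis, in the VSG duodenum library and in the 4 libraries of jejunum and ileum, with 1 point per library and lines that only join points of the same group. The Defa33 and Defa21 groups climb from 56.8 and 31.2 RPKM in sham jejunum to 25600 and 9302 RPKM in sham ileum, while the Defa24 group moves between 4505 and 22380 RPKM.

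The make-up of the alpha-defensin pool differed accordingly. The Defa24 group supplied 79.6% of the summed Defa level in VSG duodenum, 76.8% in sham jejunum and 68.9% in VSG jejunum, and 27.6% and 25.8% in sham and VSG ileum. The Defa33 and Defa21 groups together supplied 0.477% in VSG duodenum, 0.980% in sham jejunum and 3.21% in VSG jejunum, and 53.9% and 56.0% in sham and VSG ileum. These shares are taken within a library and do not depend on its depth. As sums of RPKM they do depend on the gene lengths used, which differed within groups (838 bases for Defa31 and 419 for Defa24). In the libraries with few Defa reads the same groups supplied 34.0% in sham colon and 44.2% in VSG colon, from 346 and 823 Defa reads in all, and 34.1% and 36.6% in sham and VSG stomach, from 404 and 282 reads. The source of these few reads was not tested.

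**Figure D3:**
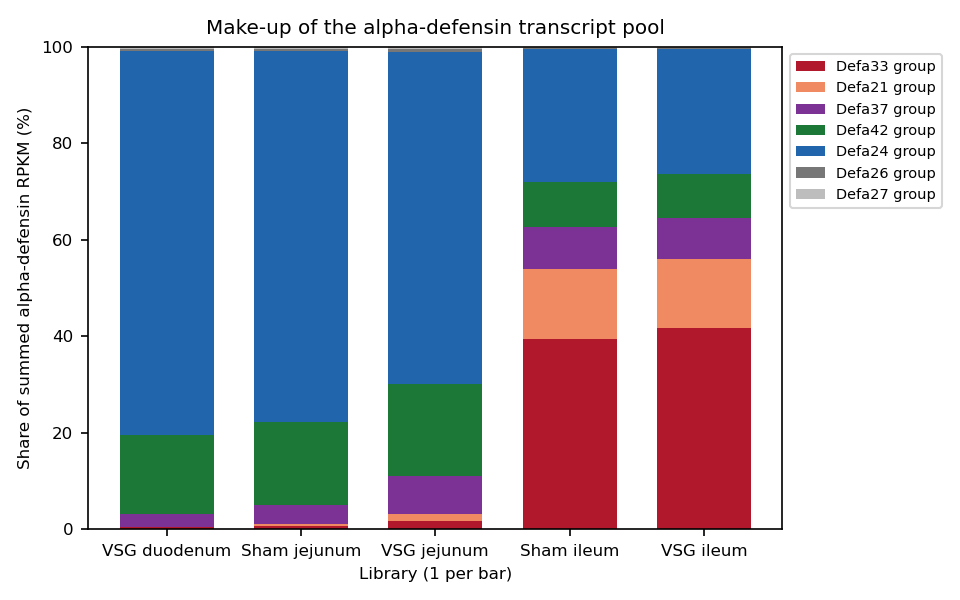
Share of the summed alpha-defensin RPKM supplied by each sequence group, in percent, in 5 libraries (1 bar per library). The Defa24 group fills 68.9% to 79.6% of the bars of duodenum and jejunum, and the Defa33 and Defa21 groups together fill 53.9% and 56.0% of the ileum bars.

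The difference between ileum and jejunum was tested with limma on log2(RPKM + 1) over the 6 libraries of jejunum, ileum and colon, with surgery as a covariate and Benjamini-Hochberg adjustment over 12615 genes. Of the 29 members, 27 were higher in ileum at an adjusted p under 0.05, and the differences of all 29 were positive. Over all genes tested, 23% were higher and 11.4% were lower (2898 and 1439 genes, or 1788 and 1929 after rescaling to the median ratio between libraries), and the median log2 difference was 1.92 for the members and 0.13 for all genes. In 27 members both ileum libraries lay above both jejunum libraries, which held for 49.5% of all genes. Defa33 differed by 7.77 log2 units (SE 0.40, adjusted p = 5.28e-05) and Defa21 by 6.69 (SE 0.58, adjusted p = 0.000457). Defa24 differed by 1.36 (SE 0.20, adjusted p = 0.00316) and Defa17 by 0.94 (SE 0.18, adjusted p = 0.00779). The members that did not pass were Defa31 (0.57, adjusted p = 0.11) and Defa39 (0.55, adjusted p = 0.124), and in both the VSG jejunum library lay above the sham ileum library.

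The 4 members that are not defensins were higher in ileum as well. Lyz1 was higher in ileum by 2.00 log2 units (SE 0.25, adjusted p = 0.00174), Ang4 by 2.24 (SE 0.25, adjusted p = 0.00123), Mmp7 by 1.92 (SE 0.26, adjusted p = 0.00244) and Itln1 by 1.64 (SE 0.19, adjusted p = 0.00122). Among genes known to set up or maintain secretory and Paneth cells, 9 of the 15 tested were higher in ileum and none was lower, where 23% of all genes were higher. Lists of other cells had as large a part of their genes higher in ileum, with 7 of 9 goblet cell genes, 8 of 9 B cell and Peyer's patch genes and 7 of 8 smooth muscle genes, and none lower. Atoh1, the transcription factor that commits cells to the secretory lineage, was at 5.95 and 6.24 RPKM in sham and VSG jejunum and at 12.4 and 14.7 RPKM in sham and VSG ileum. The ileal libraries carried their regional markers: Fabp6, the ileal bile acid binding protein, reached 4365 RPKM in the sham library and 4449 RPKM in the VSG library of ileum, and was at 1.03 and 0.344 RPKM in sham and VSG jejunum.

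All 29 members were higher in ileum than in colon in the same fit, where 13.2% of all genes were higher and 47.8% lower (1659 and 6032 genes, or 3034 and 2641 after rescaling to the median ratio). Nearly all of them entered the fit through the small intestine, so this count is a description and supports nothing. Ang4 was the exception to the low colonic levels, at 165 RPKM in sham colon and 175 RPKM in VSG colon against 74.7 RPKM in sham jejunum. Lyz1 was at 17.9 and 20.5 RPKM in sham and VSG colon, and Mmp7 at 1.11 and 2.04 RPKM.

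After VSG, every member that was expressed in the jejunum was higher there than after the sham operation. With 1 library per group the difference was taken as log2((VSG + 1)/(sham + 1)), without a test, for genes averaging 1 RPKM or more over both libraries. Of 29 members kept, 26 were at least 2-fold higher in VSG jejunum and none was lower, and among all 11681 genes kept the shares at 2-fold were 0.762% higher and 0.3% lower. The median log2 difference was 1.33 for the members and -0.02 for all genes. The lowest of the 29 members was Defa25, at 2.95 RPKM in sham jejunum, so all were above the filter in both libraries. Intervals below are exact conditional binomial (Clopper-Pearson) 95% intervals from recovered reads. They cover counting error only.

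The largest ratios were those of the Defa21 and Defa33 groups. Defa21 was at 15.5 RPKM in sham jejunum and 163.7 RPKM in VSG jejunum, a 10.6-fold difference (interval 9.31 to 12.1). Defa22, its near copy, was at 15.8 and 161.9 RPKM, a 10.3-fold difference (interval 9.04 to 11.7). The Defa21 group as a whole had 525 reads in sham and 5122 reads in VSG jejunum. In the Defa33 group, Defa33 was at 22.8 and 135 RPKM in sham and VSG jejunum, 5.92-fold higher (interval 5.31 to 6.61), and Defa20 and Defa32 were 5.68-fold and 5.78-fold higher. These levels in VSG jejunum were still 109.3-fold (Defa33) and 37.8-fold (Defa21) below those in VSG ileum.

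The Defa37 group came next, with 3.53-fold (Defa34) to 4.82-fold (Defa5) higher levels in VSG jejunum. Defa37 itself was at 185.2 and 785.1 RPKM in sham and VSG jejunum, 4.24-fold higher (interval 4.12 to 4.36). The Defa42 group was 2.23-fold (Defa38) to 2.99-fold (Defa39) higher, and Defa42 was at 572.7 and 1446 RPKM in sham and VSG jejunum.

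The Defa24 group, the most abundant group of the jejunum, had the lowest ratio of summed reads. Defa24 was at 1752 RPKM in sham jejunum and 3681 RPKM in VSG jejunum, 2.10-fold higher (interval 2.07 to 2.13). Within its group the ratios ran from 1.79 (Defa30) to 2.10, with Defa17 at 2.06. Defa30 was at 1173 and 2095 RPKM in sham and VSG jejunum and did not reach 2-fold. On the scale with the pseudocount Defa25 (2.95 and 5.44 RPKM, interval of the ratio 1.18 to 2.92) and Defa28 (3.24 and 6.92 RPKM) did not either. The summed reads of the Defa24 group gave a ratio of 2.05 (interval 2.04 to 2.06), those of the Defa37 group 4.30 (interval 4.20 to 4.40), those of the Defa33 group 5.80 (interval 5.42 to 6.22) and those of the Defa21 group 10.4 (interval 9.52 to 11.4). They were 2.52 (interval 2.49 to 2.55) in the Defa42 group, 2.66 (interval 2.43 to 2.91) in the Defa26 group and 2.22 (interval 1.85 to 2.68) in the Defa27 group, whose intervals overlap each other, and that of the Defa27 group takes in that of the Defa24 group. With 1 library a side, differences between groups were not tested. The summed reads of a group do not depend on how reads were divided within it, provided that each read was counted once, which is not given. If reads were counted at more than 1 copy, the intervals are too narrow.

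The other Paneth cell products were 2.14-fold (Itln1) to 3.32-fold (Mmp7) higher in VSG jejunum. Lyz1 was at 1062 RPKM after sham and 2459 RPKM after VSG, 2.31-fold higher (interval 2.29 to 2.34). Itln1 was at 345.9 and 741 RPKM, 2.14-fold higher, and Ang4 at 74.7 and 184.2 RPKM, 2.47-fold higher. Mmp7, the protease that activates the defensins, was at 20.6 and 68.4 RPKM in sham and VSG jejunum, 3.32-fold higher (interval 3.05 to 3.61). No member had a sham jejunum library above its VSG jejunum library.

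**Figure D4:**
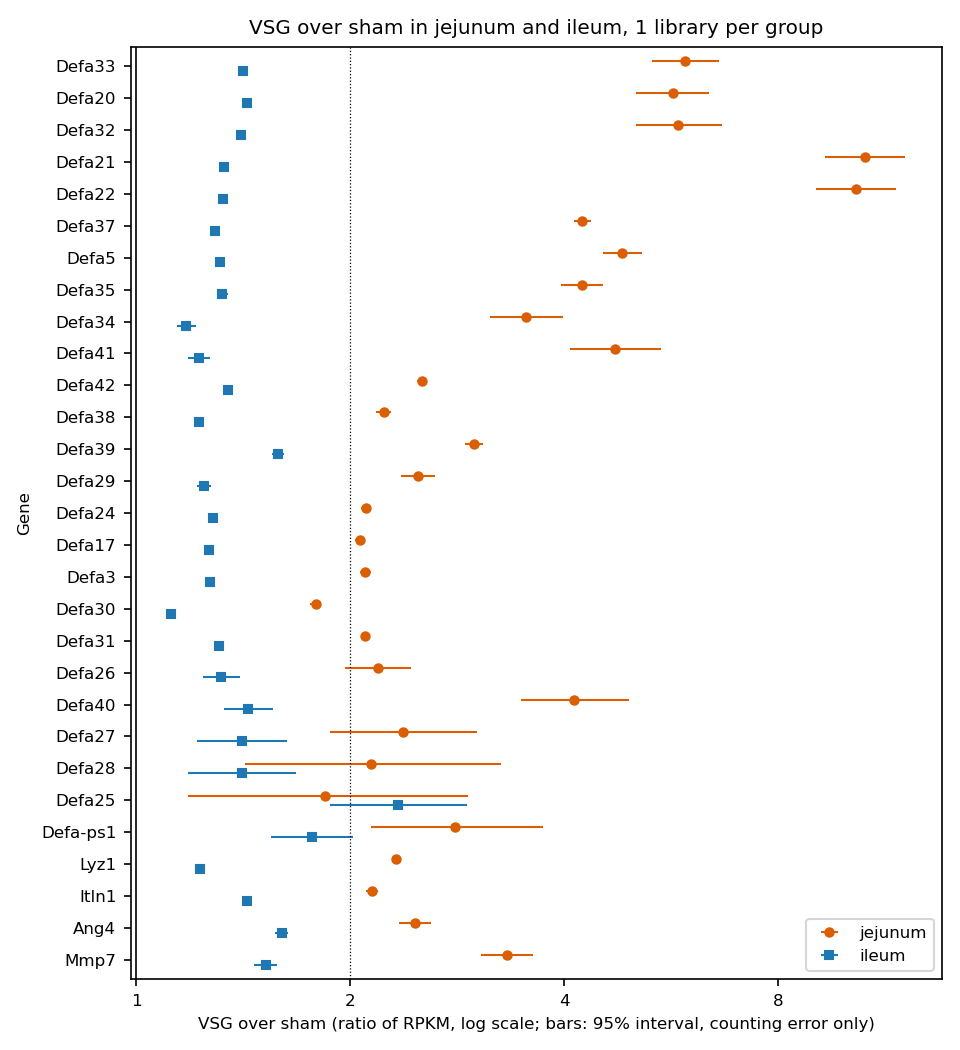
Ratio of the VSG to the sham library for each of 29 members in jejunum (circles) and ileum (squares), on a log axis, with 95% intervals that cover counting error only (1 library per group). The line at 1 marks no difference and the dotted line 2-fold. In the jejunum the ratios run from 1.79 to 10.6 among Defa genes, and in the ileum from 1.12 to 2.33.

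In the ileum the same genes differed far less. All 29 members were higher in the VSG library, by a median log2 difference of 0.40 against 0.01 for all genes, and 1 of 29 reached 2-fold, where 0.148% of all 12202 genes did (and 0.123% were as much lower). That member was Defa25, at 9.18 and 21.4 RPKM in sham and VSG ileum, 2.33-fold higher (interval 1.87 to 2.92). Defa33 was at 10450 and 14750 RPKM in sham and VSG ileum, 1.41-fold higher (interval 1.40 to 1.42). Defa21 was at 4662 and 6188 RPKM, 1.33-fold higher, and Defa24 at 5753 and 7371 RPKM, 1.28-fold higher. The groups that differed most in the jejunum were therefore near the others here, with ratios of summed reads from 1.26 (Defa24 group) to 1.57 (Defa27 group).

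After Defa25, the largest ileal ratios among Defa genes were those of Defa-ps1 and Defa39. Defa-ps1 was at 27.7 and 48.8 RPKM in sham and VSG ileum, 1.76-fold higher, and Defa39 at 650.1 and 1028 RPKM, 1.58-fold higher. Defa30 (1.12-fold), Defa34 (1.18-fold) and Defa41 (1.23-fold) had the smallest. Lyz1 was at 5845 and 7189 RPKM, 1.23-fold higher, Mmp7 at 118 and 179.4 RPKM, 1.52-fold higher, Ang4 at 441.3 and 706.4 RPKM, 1.60-fold higher, and Itln1 at 1317 and 1887 RPKM, 1.43-fold higher. The log2 difference was larger in jejunum than in ileum in 28 of the 29 members, Defa25 being the exception. The difference between tissues has no replicate check and was not tested. Lists of other cells also differed between the ileum libraries. Among all genes kept the median log2 difference was 0.01, and the share above or below sham by any amount was not counted. All 8 smooth muscle genes were lower in VSG (median log2 difference -0.355, summed level 1011 and 775 RPKM in sham and VSG ileum), and all 10 macrophage genes were higher (median 0.25, 894.3 and 1106 RPKM). Lyz2 alone supplied 773.9 and 957.7 RPKM of the macrophage sums. For B cells and Peyer's patches the median was -0.45 (52.9 and 36.1 RPKM), and 1 of 10 genes was above its sham level. Their part in the ileal differences was not tested.

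The surgery difference shared by jejunum and ileum was tested with limma over these 4 libraries, with tissue as a covariate and 1 residual degree of freedom before the spread was shared across 12025 genes. Of the 29 members, 7 were higher after VSG at an adjusted p under 0.05 and all 29 differences were positive, where 0.383% of all genes were higher and 0.557% lower. At an unadjusted p under 0.05, 23 of 29 members were higher, where 5.06% of all genes were. The called members were Mmp7 (log2 difference 1.14, SE 0.20, adjusted p = 0.0241), Ang4 (0.98, SE 0.19, adjusted p = 0.0365), and Defa25, Defa27, Defa28, Defa40 and Defa-ps1, with log2 differences from 0.69 to 1.25 and adjusted p from 0.00256 to 0.0411. Defa33 (1.505, adjusted p = 0.12), Defa21 (1.86, adjusted p = 0.12), Defa24 (0.71, adjusted p = 0.61) and Lyz1 (0.75, adjusted p = 0.563) did not pass. The log2 difference of Defa21 was 3.32 in jejunum and 0.41 in ileum, and that of Defa33 was 2.51 and 0.50. Such a gap between tissues counts as spread in this fit, which also borrows the spread of genes at a like level. Defa24, with log2 differences of 1.07 in jejunum and 0.36 in ileum, had an SE of 0.45. Defa40 had a wider gap (1.98 and 0.52) and an SE of 0.25. The called Defa genes had the lowest ileal levels of the Defa genes tested, with means of 15.3 (Defa25) to 98.6 RPKM (Defa40). Not passing therefore does not mean a small difference. All 29 were higher after VSG in both tissues, as were 28.9% of the 11473 genes kept in both. The count of 7 depended on the setting: it was 18 when libraries were rescaled to the median ratio, and it was 0 when genes of low level were not filtered out or when the colon or further tissues entered the fit.

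Across the 24 protein-coding Defa genes, the jejunal VSG ratio followed how strongly a gene was tilted towards the ileum in other libraries. The tilt was taken as the ratio of sham ileum to VSG duodenum, which shares no library with the jejunal ratio. Pearson's r on log2 ratios was 0.91 and Spearman's rho 0.85 over the 24 genes, and r was 0.95 and rho 0.96 over the 7 groups. Defa32 had the largest tilt, at 1466-fold, and Defa39 the smallest, at 3.13-fold. Genes are not independent replicates, near copies share reads, and each axis rests on 2 libraries, so these are descriptions.

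**Figure D5:**
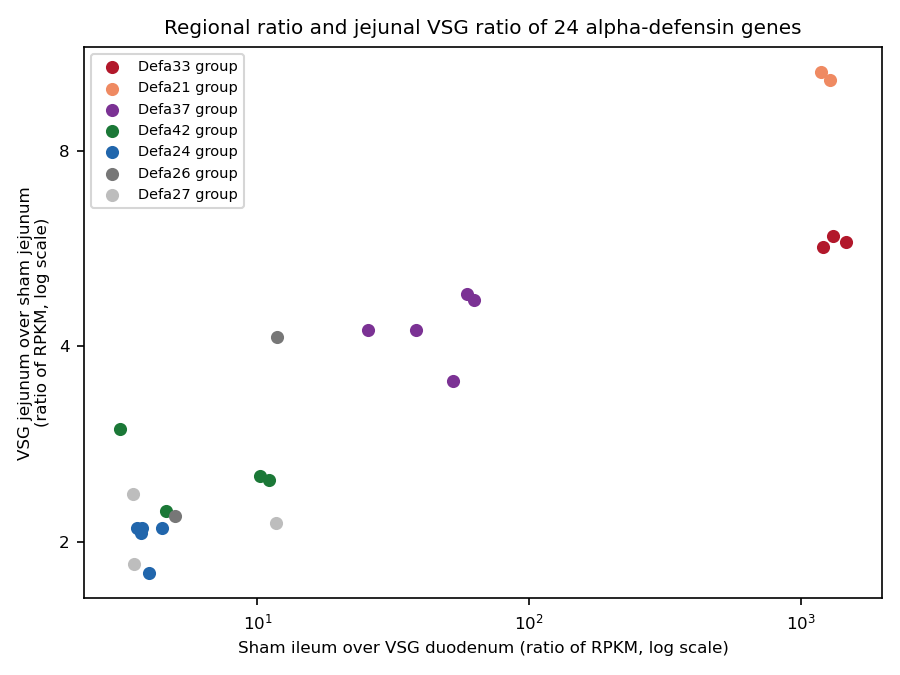
Each point is 1 of 24 alpha-defensin genes, coloured by sequence group, with the ratio of sham ileum to VSG duodenum on the horizontal axis and the ratio of VSG to sham jejunum on the vertical axis, both of RPKM on log axes. The Defa33 and Defa21 groups lie at the upper right (1186-fold to 1466-fold, and 5.68-fold to 10.6-fold), the Defa37 group in the middle, and the Defa24 group at the lower left.

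Genes that mark the ileum by other functions stayed near 0 in both jejunum libraries. The 3 ileum identity genes, Fabp6, Slc10a2 (the ileal bile acid transporter) and Fgf15 (a bile-acid-induced hormone), summed to 1.31 RPKM in sham and 0.834 RPKM in VSG jejunum, against 4489 and 4613 RPKM in ileum. The 6 genes of the proximal small intestine summed to 709.6 RPKM in sham and 565.1 RPKM in VSG jejunum. Of the 5 kept there, 1 was at least 2-fold lower, where 0.3% of all genes were, and the median log2 difference was -0.25. That gene was Pdx1, a transcription factor of duodenum and pancreas, at 5.75 and 1.59 RPKM. Gata4 was at 53.3 and 48.5 RPKM. Onecut2 was the 1 gene of the 5 above its sham level, at 6.34 and 7.10 RPKM. Where along the jejunum the tissue was cut is not given in the labels, and its part in the result was not tested.

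Other genes that Paneth cells express were uneven. Of 12 such genes kept in jejunum, 4 were at least 2-fold higher in VSG and none was lower. Among all genes kept there, 0.762% were as much higher and 0.3% as much lower. Reg3b, which codes for an antibacterial lectin also made by enterocytes, was at 104.8 and 1980 RPKM in sham and VSG jejunum, and at 3351 and 3284 RPKM in ileum. Reg3g was at 50.1 and 645.4 RPKM in jejunum and at 1499 and 1628 RPKM in ileum. Mptx2, a pentraxin of Paneth cells, was at 2.77 and 131.4 RPKM in jejunum and at 53.7 and 267.8 RPKM in ileum, and it passed the test over both tissues (log2 difference 3.72, adjusted p = 0.00223). Pla2g2a, a secreted antibacterial phospholipase whose gene carries a frameshift in C57BL/6 mice, passed it too (0.83, adjusted p = 0.0151). Thus 2 of 13 genes tested were higher and none was lower, where 0.383% of all genes were higher and 0.557% lower. At an unadjusted p under 0.05, 8 were higher and 2 lower, where 609 and 740 of all 12025 genes were. Reg3a was lower, at 350.6 and 216.3 RPKM in jejunum, without reaching 2-fold.

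Regulators and markers of stem, goblet and brush border cells stayed under 2-fold in the same libraries. Of 14 regulators of Paneth and secretory cells kept in jejunum, none reached 2-fold in either direction, with a median log2 difference of 0.05. Among all genes kept there, 0.762% were at least 2-fold higher and 0.3% lower, so a count of none in these short lists says little. None of the 15 tested with limma over both tissues passed at an adjusted p under 0.05, where 0.383% of all genes were higher and 0.557% lower. At an unadjusted p under 0.05, 1 was higher, where 5.06% of all genes were. Ctnnb1, the Wnt effector beta-catenin, was at 182.9 and 191.9 RPKM and Xbp1, which expands the secretory apparatus, at 112.9 and 121.2 RPKM in sham and VSG jejunum. None of the 7 stem cell genes reached 2-fold, with Olfm4 at 134 and 164.9 RPKM. None of 8 goblet cell genes kept did, with Zg16 at 2452 and 2029 RPKM, and none of 10 brush border genes did, with a median of -0.20. The brush border genes were lower as a set, with 1 of 10 above its sham level, where the median log2 difference of all genes was -0.02. They summed to 27610 RPKM in sham and 20080 RPKM in VSG jejunum, and the part of this in the result was not tested.

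Antimicrobial genes of other epithelial cells were mixed. Among all genes kept in jejunum, 0.762% were at least 2-fold higher in VSG and 0.3% lower. Of the 7 antimicrobial genes kept there, 2 were at least 2-fold higher and none was lower. These were Lcn2, a siderophore-binding protein, at 0.818 and 7.09 RPKM, and Duox2, an epithelial oxidase, at 0.161 and 2.02 RPKM in sham and VSG jejunum. Both entered the jejunal count through the VSG library, which set their direction. Both passed the test over both tissues (log2 differences 1.50 and 1.18, adjusted p = 0.0107 and 0.000707). They were 2 of 8 genes tested, where 0.383% of all genes were higher. Lypd8, which keeps bacteria away from the colonic epithelium, was at 834.7 and 1078 RPKM.

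Markers of other cell types were higher in the VSG jejunum library as well. The 10 pancreatic acinar genes summed to 2.77 RPKM in sham and 296 RPKM in VSG jejunum, all 10 at least 2-fold higher. All 10 were below 1 RPKM in sham jejunum and passed the filter through the VSG library. They summed to 7.65 and 4.10 RPKM in sham and VSG ileum, 3.16 and 539.4 RPKM in colon, and 254.7 and 1869 RPKM in stomach. The 10 macrophage genes summed to 278.1 and 537.4 RPKM in jejunum, of which Lyz2 alone supplied 162.9 and 373.2 RPKM. As ratios of RPKM, 3 of 10 were at least 2-fold higher, Mrc1 (2.32-fold), Lyz2 (2.29-fold) and Cd68 (2.26-fold), and 1 of 10, Lyz2, on the scale with the pseudocount. The other 7 were 1.165-fold (Cd14) to 1.89-fold (Adgre1) higher. Lyz2, the lysozyme of macrophages, whose coding sequence is 95.1% identical to that of Lyz1, was at 162.9 and 373.2 RPKM. The ratio of Lyz1 to Lyz2 was 6.52 in sham and 6.59 in VSG jejunum, and 7.55 and 7.51 in sham and VSG ileum. How far the Lyz2 level came from macrophages in these libraries was not tested. C1qa, C1qb and C1qc, complement genes of tissue macrophages, were 1.28-fold to 1.50-fold higher. In the test over both tissues none of the 10 macrophage genes passed. All 10 were higher at an unadjusted p under 0.05, as were the 10 acinar genes, where 5.06% of all genes were. The acinar genes met the filter of that test mainly through the VSG jejunum library, which set their direction, so their count supports nothing. The 9 neutrophil genes summed to 1.14 and 8.30 RPKM, and the 3 kept in jejunum were all at least 2-fold higher in VSG. These 3 passed the filter through the VSG library alone, which set their direction. S100a9, a calcium-binding protein abundant in neutrophils, was at 0.0764 and 2.41 RPKM, its partner S100a8 at 0.127 and 2.17 RPKM, and Retnlg at 0.385 and 2.67 RPKM in sham and VSG jejunum. In the test over both tissues 0.383% of all genes were higher. Both neutrophil genes tested there passed, S100a9 (log2 difference 1.49, adjusted p = 0.00156) and Retnlg (1.08, adjusted p = 0.0207). Both met the filter of that test through their VSG libraries. Mpo and Elane, which define the lineage, were at 0 in sham jejunum and at 0.0418 and 0.0579 RPKM in VSG jejunum. The 10 B cell and Peyer's patch genes summed to 17.1 and 20.6 RPKM. The part of these cells in the result was not tested.

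In the stomach 3 of the non-defensin members were higher after VSG, and the summed Defa level was nearly equal. The summed Defa level was 11.3 and 11.4 RPKM in sham and VSG stomach. Of 6 members kept there, 3 were at least 2-fold higher in VSG and none lower, where 12.9% of 13367 genes were higher and 3.94% lower. Of these 3, Mmp7 and Itln1 were below 1 RPKM in sham stomach. They passed the filter through the VSG library, which set their direction. Lyz1 was at 8.51 and 136.6 RPKM (16.0-fold, interval 14.9 to 17.2), Mmp7 at 0.116 and 17.1 RPKM (147.3-fold, interval 74.4 to 342.6), and Itln1 at 0.538 and 5.54 RPKM (10.3-fold, interval 7.57 to 14.3). Beside this, Lyz2 was at 67.5 and 1737 RPKM, so that the ratio of Lyz1 to Lyz2 was 0.126 and 0.0786, and the 10 macrophage genes summed to 149.5 and 2625 RPKM. The 9 neutrophil genes summed to 32.6 and 1624 RPKM. The part of these cells in the lysozyme result was not tested.

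In the colon the defensins were near the lower limit of measurement. Of 16 members kept, 5 were at least 2-fold higher in VSG and none lower, where 0.432% of 12970 genes were higher and 0.0463% lower. Of these 5, Defa21, Defa22, Defa31 and Defa32 were below 1 RPKM in sham colon. They passed the filter through the VSG library, which set their direction, so this count supports nothing. Defa33 was at 1.58 and 6.02 RPKM in sham and VSG colon, from 29 and 96 reads. Defa21 was at 0.778 and 3.06 RPKM, from 14 and 48 reads. With a mean of at least 5 RPKM required, 2 members were kept and neither reached 2-fold. Fabp6, the ileal gene, was at 31.4 and 43.8 RPKM in the same libraries. Ang4, the abundant colonic member, was at 165 and 175.3 RPKM, 1.06-fold higher (interval 1.02 to 1.11).

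The reading of single genes is limited by the gene models. The length that turns the deposited values into whole reads was within 20% of the annotated transcript for 16 of 24 Defa genes, and 1.8 times or more of it for Defa31, Defa37 and Defa42, whose levels per length depend on which length is right. Ratios between libraries of the same gene do not depend on the length. Reads of Defa21 and Defa22 were nearly equal in the libraries of jejunum and ileum, 260 and 265 in sham jejunum and 97655 and 97206 in sham ileum. They entered the member counts, the tests and the relation over 24 genes as separate genes, although they are not independent observations.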

How the data were processed

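RNA was extracted with TRIzol and libraries were made with a TruSeq kit, per the labels' protocols. GSNAP, Cufflinks and mm10 appear in the submitters' processing notes, without versions or roles. The authors deposited RPKM values for 23079 genes by Entrez identifier, of which 23008 were matched to symbols. Annotation and handling of multiply mapped reads: not given in the sources used here.

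Between data rows 27 and 18213 the 8 intestinal columns stood 1 row below their genes and were moved back. In genes sampled there, values returned whole reads for 12.5% as deposited and 99.93% after the move (tolerance 0.002 reads). Reads were recovered for 18565 of 18580 genes. They were used for intervals, ratios of summed reads, shares of reads and 1 rescaling, while the tests were run on RPKM. An interval was taken wherever both libraries held reads. The recovered total was 0.858 (sham duodenum) to 1.16 (VSG duodenum) times the depth implied by the authors' scaling.

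Linear models were fitted to log2(RPKM + 1) with limma 3.58.1 (R 4.3.3) and a mean-variance trend, after a filter at a mean of 1 RPKM. They were also run on simulated data in which a change with surgery was the same in each tissue. That run cannot show how the test behaves where the effect of VSG differs between tissues. Sequences were aligned with Biopython 1.88. Genes named are the 4 non-defensins, the 8 Defa genes highest in ileum, the 3 largest and 3 smallest differences in jejunum and ileum, and up to 4 genes per other list. Further genes (group extremes, called or uncalled members, Mptx2, Pla2g2a, Atoh1, Pdx1, Mpo, Elane, Mrc1, Cd68, Cd14, Adgre1, Duox2, Lcn2) were named after their values were seen. Members and lists were chosen with earlier results of these data known. The Defa sequence groups were formed after the files were read, from sequence alone.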

Additional observations from a re-analysis of the deposited data

How the results depend on the processing

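No paired analysis was possible because each tissue and surgery has 1 library and no shared replicate numbers, beyond the tissue term that sets VSG against sham within each tissue in the surgery test. Of the alternatives, 91 of the 122 values that answer a comparison moved little (a count by no more than 1.5 times, a ratio by no more than its counting error), and no ratio changed direction. The members called higher with surgery in jejunum and ileum were 7 as reported, 17 with a mean of at least 5 RPKM, 18 with the median ratio, 3 without the mean-variance trend, 4 with rows as deposited, and 0 without the filter, with jejunum, ileum and colon, with stomach added, and with all 5 tissues (20, 28, 6 and 7 at an unadjusted p under 0.05). Members higher in ileum than jejunum were 27 as reported, 12 with 9 libraries, 3 with all 10, and 25 to 29 leaving out each library in turn. Those higher in ileum than colon were 29, 17 with rows as deposited, 15 with all 10 libraries, and 29 leaving out each library in turn. Rescaling to the median ratio moved the median difference of all genes by -0.11 (ileum against jejunum) and 0.30 (ileum against colon) log2 units.

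Members at least 2-fold higher in VSG jejunum were 26, and 15 with rows as deposited. In colon they were 5, and 9 with a pseudocount of 0.1, 0 with a mean of at least 5 RPKM and 3 with rows as deposited. Against the library labelled sham duodenum, all 28 members kept were higher in VSG duodenum, where 27.5% of all genes were higher and 27.9% lower, 18 with a mean of at least 5 RPKM (of 18 kept) and 18 with rows as deposited, which also put 2 lower. Most of these 28 were below 1 RPKM in the library labelled sham duodenum and passed the filter through the VSG library. Their direction was thus set in advance, and the count supports nothing. The ratio of the summed Defa level was 2.27 in jejunum, and 2.46 with totals rescaled, 2.49 by summed reads over depth and 2.19 with rows as deposited. In ileum it was 1.34, and 1.30, 1.29 and 1.32 under the same settings and 1.32 without Defa33. In stomach it was 1.01, and 1.22 by summed reads over depth, and in colon 2.69, and 1.13 with rows as deposited. Against the library labelled sham duodenum, which is not used as a duodenum, it was 242.3, and 179.2, 173.8 and 16.1 under the 3 settings. Joining sequences at 90% or 98% identity, chosen after seeing the data, gave 5 and 15 groups in place of 7. The causes were not tested. Depth limits the stomach and colon, where 282 to 823 reads fell on Defa genes.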
